A study of Homo sapiens with 12 samples.

Results

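The 100 most abundant annotated genes of K562 cells, an established human chronic myeloid leukemia cell line, were examined in 9 RNA-seq libraries. They are the 100 annotated rows with the highest mean TPM over those libraries, out of 59317 rows, of which 58233 are annotated and 1084 were newly assembled. TPM (transcripts per 1000000) is a length-corrected measure of the part of a library's RNA that 1 gene takes. Cells were infected with lentivirus carrying the empty pLKO vector (3 libraries, called pLKO), a pLKO hairpin against DNMT3A (3 libraries, shDNMT3A) or a pLKO hairpin against RUNX1 (3 libraries, shRUNX1; spelled shRunx1 in the labels). Each group was a pool of stably infected cells and all 3 carried a pLKO backbone. The labels do not give the hairpin that was sequenced. The annotated rows carry a name cut to the first 8 characters of an Ensembl gene identifier, the same for every row, so rows are genes rather than transcripts and are known here by rank in mean TPM and by position in the list. No row can therefore be matched to a gene, and neither the knockdown of DNMT3A or RUNX1 nor the identity of the cells could be checked. Libraries are described by the study as biological replicates, and the p-values below measure the spread between these libraries only.

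In most cells a small set of genes supplies a large part of the messenger RNA. These are usually genes for ribosomal proteins, translation factors, cytoskeleton and energy metabolism, and erythroid cells add globin genes. RUNX1 is a transcription factor of blood cell development and DNMT3A is a DNA methyltransferase. Because TPM has a fixed total per library, a larger value for a few abundant genes leaves less for all others, and a gain of RNA from these genes cannot be told apart from a loss of RNA from the rest.

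1 library stood apart from the others. In pLKO replicate 1 the list took 50.8% of all TPM, against 37.9% to 40.2% in the other 8 libraries, and 21046 rows were above 0, against 22364 to 23473. No 2 libraries held identical values. Main results that use the pLKO group are given with and without this library. The depth of the libraries is unknown, since only TPM was deposited.

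The list itself was chosen by level, so the levels are a description. Mean TPM fell from 47751 for rank 1 to 1591 for rank 100. The row just outside, rank 101 at position 21455, had a mean of 1585 TPM, made of 926 to 1526 TPM in pLKO, 786 to 876 in shDNMT3A and 2649 to 2976 in shRUNX1. The last row inside, at position 3090, had 1508 to 2033 TPM in pLKO, 1584 to 1654 in shDNMT3A and 1349 to 1477 in shRUNX1. Across single libraries, members ranged from 877 to 64216 TPM. Of the 100 members, 97 reached 1000 TPM in every library, and 87 were among the 100 highest annotated rows of each single library. No newly assembled row came near the list, the highest having a mean of 578 TPM. All members passed the filter used for testing.

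The share of all TPM taken by the list was 50.8%, 38.6% and 37.9% in the 3 pLKO libraries. It was 39.3%, 39.6% and 38.9% in shDNMT3A and 39.5%, 40.1% and 40.2% in shRUNX1. Apart from pLKO replicate 1, all 8 libraries lay within a narrow band, and shRUNX1 libraries 2 and 3 were the highest of these 8. The mean share was 42.4% ± 7.23 (SD, n = 3) in pLKO, 39.3% ± 0.335 in shDNMT3A and 39.95% ± 0.36 in shRUNX1 (each n = 3). The shRUNX1 share was 2.47 percentage points below pLKO, a difference of -2.47 that the two-sided exact permutation test did not separate from the spread (p = 1.0; the smallest p that 3 against 3 allows is 0.1). Without pLKO replicate 1 the direction turned, to 1.7 points above the mean of pLKO 2 and 3 (38.3%), with every shRUNX1 library above both of these (exact permutation p = 0.2, the smallest that 3 against 2 allows). For shDNMT3A the difference from pLKO was -3.15 points (exact permutation p = 1.0), and 1.03 points without pLKO replicate 1 (exact permutation p = 0.2). Between the knockdowns, shRUNX1 was 0.672 points above shDNMT3A (exact permutation p = 0.2), with 1 shRUNX1 library inside the shDNMT3A range. With so few libraries none of these p-values could fall below 0.05.

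**Figure D1:**
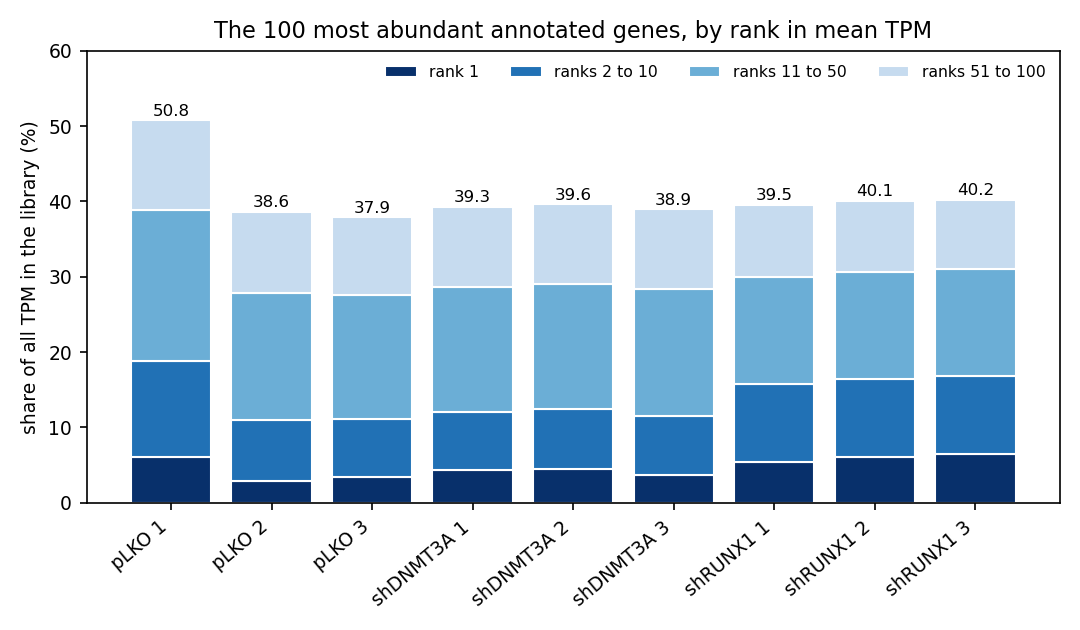
Share of all TPM (%, y axis) taken by the 100 most abundant annotated genes in each of 9 libraries (x axis), stacked by rank in mean TPM, with the total above each bar. pLKO 1 reaches 50.8% against 37.9% to 40.2% elsewhere, and the shRUNX1 bars have thicker lower parts (ranks 1 to 10) and thinner upper parts than the shDNMT3A bars.

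The total hid opposite movements inside the list. Ranks 1 to 10 took 10.9% and 11.1% of all TPM in pLKO 2 and 3, 12.1%, 12.4% and 11.5% in shDNMT3A, and 15.7%, 16.4% and 16.8% in shRUNX1. pLKO 1 stood at 18.9%. Ranks 11 to 50 went the other way, with 14.3%, 14.1% and 14.3% in shRUNX1 against 16.5%, 16.6% and 16.9% in shDNMT3A and 17.0% and 16.5% in pLKO 2 and 3. Ranks 51 to 100 took 9.15% to 9.53% in shRUNX1 and 10.3% to 10.7% in shDNMT3A and pLKO 2 and 3. In pLKO 1 these lower tiers were not reduced, at 19.98% and 11.9%. Thus the shRUNX1 libraries had a larger top 10 and a smaller remainder, whereas pLKO 1 was higher in all 3 tiers.

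Rank 1, at position 28034, was the single largest source of the larger top share. Its TPM was 60813, 29437 and 34617 in pLKO, 43033, 45291 and 37190 in shDNMT3A, and 54015, 61145 and 64216 in shRUNX1. All shRUNX1 libraries were above all shDNMT3A libraries and above pLKO 2 and 3, while pLKO 1 lay inside the shRUNX1 range. This 1 row held 5.40% to 6.42% of all TPM in shRUNX1, 6.08% in pLKO 1 and 2.94% to 4.53% in the other 5 libraries. It accounted for 32.4% of the summed TPM gains among members in shRUNX1 over shDNMT3A and for 21.4% of those in pLKO 1 over pLKO 2 and 3. In the limma test across all rows its log2 fold change in shRUNX1 over pLKO was 0.59 (SE 0.23, adjusted p = 0.179), which did not pass, and 0.52 over shDNMT3A (adjusted p = 0.392). Without pLKO 1 the first became 0.90 (SE 0.11, adjusted p = 0.00104). With only the 2 knockdown groups in the fit the second was again 0.52 (SE 0.09, adjusted p = 0.00934), under 1.5-fold.

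A second source was a run of neighbouring rows. Of the 100 members, 11 lay between positions 17836 and 17966, a stretch of 131 rows in which no gap between members exceeded 27 rows. The next longest chain in the list had 4 members, and ranks 101 to 200 held none longer than 3. The 11 rows spanned ranks 2 to 89, with 4 of the 10 highest and 7 of the 25 highest members among them. The other 120 rows of the stretch were all annotated but low, with a highest mean of 1220 TPM and 11 rows listed at 0 in all 9 libraries. What the neighbourhood in the list stands for cannot be read from the values, since the order of the rows is not explained in the sources used here.

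The run took 5.34% and 5.29% of all TPM in pLKO 2 and 3 and 5.70%, 5.66% and 5.73% in shDNMT3A. It took 8.56%, 8.51% and 8.63% in shRUNX1 and 10.4% in pLKO 1, so that these 4 libraries lay above the other 5. The shRUNX1 mean of 8.57% ± 0.0591 (SD, n = 3) was 1.5 times the shDNMT3A mean of 5.70% ± 0.0337 (n = 3) and 1.61 times that of pLKO 2 and 3. No test is given for this group, because it was picked out after its values were seen. The 120 other rows of the stretch together held 0.445% to 0.465% of TPM in shRUNX1, 0.415% to 0.441% in shDNMT3A, and 0.367% in pLKO 1 against 0.395% and 0.402% in pLKO 2 and 3. In unscaled TPM the larger share in pLKO 1 was therefore in the members of the stretch and not in its other rows. How these other rows stood after scaling was not tested.

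Within the run the rows did not move alike. Rank 2, at position 17836, had 19294, 10079 and 9711 TPM in pLKO, 10272, 10088 and 10723 in shDNMT3A, and 20585, 19222 and 20219 in shRUNX1. pLKO 1 reached the shRUNX1 range, and the other 2 pLKO libraries were at the shDNMT3A level. Its log2 fold change in shRUNX1 was 0.69 over pLKO (SE 0.22, adjusted p = 0.111) and 0.95 over shDNMT3A (adjusted p = 0.0814), and without pLKO 1 these were 1.02 (adjusted p = 1.53e-05) and 0.95 (adjusted p = 1.76e-05). The run's smallest member, rank 89, had 1820, 1052 and 1090 TPM in pLKO, 1057, 999 and 1005 in shDNMT3A, and 3012, 2975 and 2966 in shRUNX1. This row, chosen after its values were seen, was 2.92 times the shDNMT3A mean in shRUNX1 and passed the test, with log2 fold changes of 1.22 over pLKO (SE 0.18, adjusted p = 0.00532) and 1.55 over shDNMT3A (adjusted p = 0.0043). Without pLKO 1 the first was 1.48 (adjusted p = 2.28e-06). The mean of rank 89 was 1320.5 TPM in pLKO and 1020.5 in shDNMT3A, below the list's lowest mean of 1591. It is a member through its shRUNX1 level, so its calls partly follow from the choice of the list. Ranks 55 and 61 of the same run had lower means in shRUNX1, at 0.786 and 0.819 times shDNMT3A. Rank 12 differed little between the knockdowns, at 6422, 6383 and 6437 TPM in shRUNX1 and 6419, 6487 and 6756 in shDNMT3A, but had 9331 in pLKO 1 against 4821 and 4694 in pLKO 2 and 3. Altogether 8 of the 11 had a higher mean in shRUNX1 than in shDNMT3A, with a median ratio of 1.47, and the same 8 to 3 count was found after either scaling described below. All 11 were higher in pLKO 1 than in pLKO 2 and 3, with ratios of 1.03 to 2.61.

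Rank 3 was also picked after its values were seen. It had 17672, 10894 and 10330 TPM in pLKO, 10353, 11454 and 10748 in shDNMT3A, and 17435, 18386 and 18478 in shRUNX1. Here too the shRUNX1 libraries lay above all shDNMT3A libraries and above pLKO 2 and 3, with pLKO 1 inside their range. Rank 1, rank 3 and the run are 13 rows in all. Together they took 15.7%, 16.5% and 16.9% of all TPM in shRUNX1, 11.04%, 11.3% and 10.5% in shDNMT3A, 9.37% and 9.79% in pLKO 2 and 3, and 18.3% in pLKO 1. These 13 rows supplied 99.2% of the summed gains among members in shRUNX1 over shDNMT3A, 94.8% of those in shRUNX1 over pLKO 2 and 3, and 64.4% of those in pLKO 1 over pLKO 2 and 3. In shDNMT3A over pLKO 2 and 3 they supplied 59.9% of the summed gains. Those gains were smaller, at 26533 TPM against 72816 TPM in shRUNX1 over pLKO 2 and 3.

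**Figure D2:**
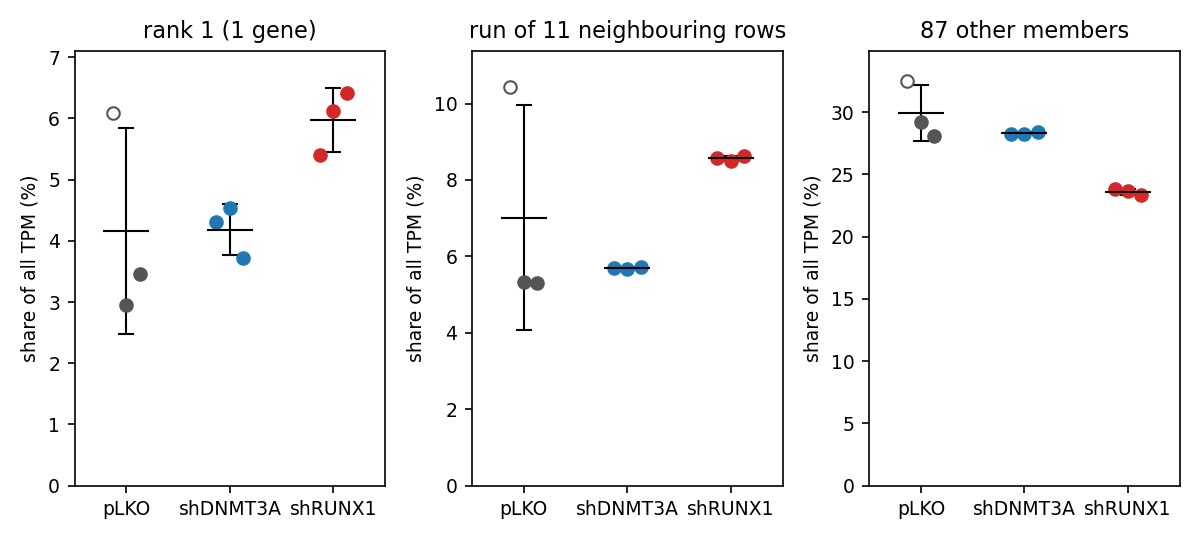
Share of all TPM (%, y axes from 0) per library in pLKO, shDNMT3A and shRUNX1 for rank 1, the run of 11 neighbouring rows and the 87 members outside the run, rank 1 and rank 3. Points are libraries (pLKO 1 open), horizontal lines are means and bars are ± 1 SD over 3 libraries. The run sits at 8.51% to 8.63% in shRUNX1 and 5.66% to 5.73% in shDNMT3A, and the 87 others at 23.3% to 23.8% and 28.2% to 28.4%.

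The other 87 members took a smaller part of the RNA in shRUNX1. Their share was 23.8%, 23.6% and 23.3% in shRUNX1, 28.2%, 28.3% and 28.4% in shDNMT3A, and 32.5%, 29.2% and 28.1% in pLKO. All 3 shRUNX1 libraries lay below all 6 others. Relative to shDNMT3A, 86 of the 87 had a lower mean in shRUNX1, with a median ratio of 0.834 and a range of 0.639 to 1.18. The run and rank 3 were set apart after their values were seen, so the direction of these 87 partly follows from that choice. Over all 100 members, 89 had a lower mean in shRUNX1 than in shDNMT3A and 11 a higher one. Among the 87, the row with the higher mean is described next. This was rank 52, with 2775 to 3018 TPM in shRUNX1 and 2341 to 2552 in shDNMT3A. The summed change of the 87 rows was -47175 TPM, and that of the whole list was 6718 TPM. Over all 100 members, 80 were lower in every shRUNX1 library than in every shDNMT3A library and 10 were higher in every one. Among all 15144 tested rows 17.5% were lower in every library and 25.4% higher. Against the 3 pLKO libraries, 74 members were lower in every shRUNX1 library and 5 higher, where 7.46% and 21.2% of all tested rows were. Against pLKO 2 and 3 alone, 77 were lower and 17 higher, where 28.4% and 22.7% of all tested rows were. In shDNMT3A against pLKO 20 members were lower in every library and 5 higher, where 5.5% and 17.8% of all tested rows were, and the other 75 overlapped. Without pLKO 1 the counts were 26 lower and 24 higher, against 34.6% and 19.7% of all tested rows, with 50 overlapping.

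Ranks 6 and 7 had the largest losses of TPM among members in shRUNX1 relative to shDNMT3A. Rank 6, at position 9997, had 10604, 12576 and 11881 TPM in pLKO, 11940, 11896 and 12038 in shDNMT3A, and 10337, 9901 and 10128 in shRUNX1. In pLKO 1 it was also low, just above the shRUNX1 libraries. Rank 7, at position 14402, had 11037, 8439 and 8368 TPM in pLKO, 8252, 8477 and 7967 in shDNMT3A, and 6672, 6631 and 6242 in shRUNX1. Every shRUNX1 library was below the other 6. The log2 fold change over pLKO was -0.50 (SE 0.10, adjusted p = 0.0231), short of the 1.5-fold required for a call (-0.37 without pLKO 1, adjusted p = 0.000912). Over shDNMT3A it was -0.34 (adjusted p = 0.171). With only the 2 knockdown groups in the fit that change was again -0.34 (adjusted p = 0.00285), also under 1.5-fold.

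**Figure D3:**
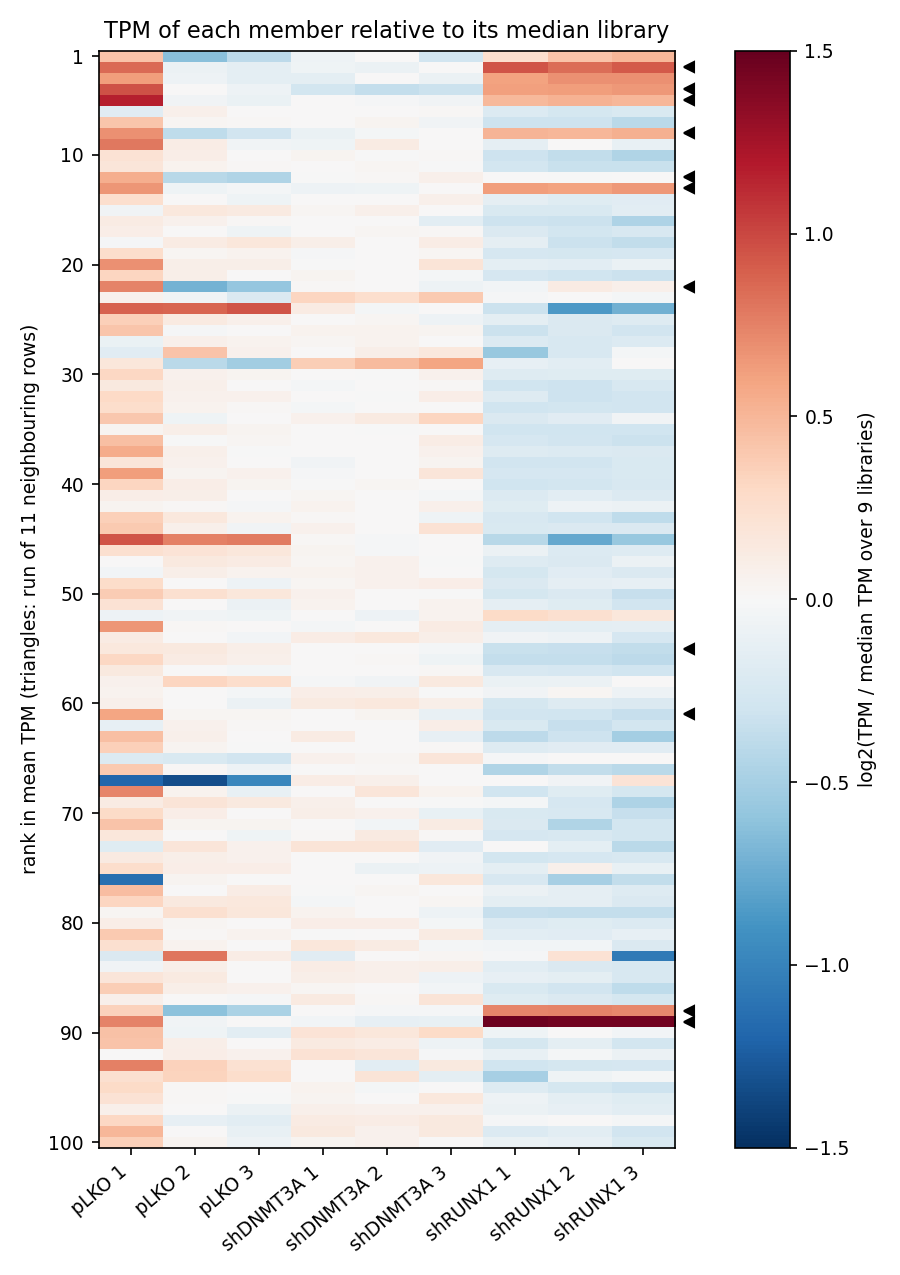
TPM of each of the 100 members (y axis, rank in mean TPM) in 9 libraries (x axis), as log2 of the ratio to that member's median over the libraries (colour scale from -1.5 to 1.5). Triangles mark the run of 11 neighbouring rows. The 3 shRUNX1 columns are blue for most members and red for ranks 1 to 5, 8, 13, 52, 88 and 89. pLKO 1 is red for most members.

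Called at an adjusted p under 0.05 and at least 1.5-fold, 6 of the 100 members changed in shRUNX1 over pLKO, 3 up and 3 down. Of all tested rows, 3.53% were called in that comparison (2.09% up and 1.44% down). The 3 called up, ranks 67, 88 and 89, had pLKO means of 1173.7, 1335.4 and 1320.5 TPM, below the list's lowest mean of 1591. Ranks 88 and 89 are members through shRUNX1, and rank 67 through both knockdowns, so these calls partly follow from the choice of the list. Rank 93, called down, was below that level in shRUNX1 instead, at 1337.3 TPM. In shDNMT3A over pLKO 4 members were called, 2 up and 2 down, against 3.06% of all rows (1.86% up and 1.21% down). In shRUNX1 over shDNMT3A 2 members were called, 1 up and 1 down, against 1.14% of all rows (0.515% up and 0.627% down). Without pLKO 1, 12 members were called in shRUNX1 over pLKO, 10 up and 2 down, against 3.03% of all rows up and 4.59% down. In shDNMT3A over pLKO 5 were then called, 3 up and 2 down, against 2.68% and 6.87%. Between the knockdowns 7 members were called without pLKO 1 in the shared fit, 6 up and 1 down. Outside the list, 686 rows were then called up and 362 down, among 15087 tested rows. Without the fold requirement, 43 members had a lower level in shRUNX1 than in pLKO at an adjusted p under 0.05 and 5 a higher one, where 2.23% and 2.67% of all tested rows did so. Without pLKO 1 these were 65 lower and 16 higher, against 12.9% and 9.33%. In shRUNX1 over shDNMT3A these counts were 13 lower and 1 higher, against 0.832% and 0.541%. In shDNMT3A over pLKO they were 2 lower and 4 higher, against 1.35% and 2.36%, and without pLKO 1 10 lower and 13 higher, against 16.5% and 9.22%. The members varied less between libraries than other rows, with a median SD of log2(TPM + 1) of 0.0458 in shRUNX1 and 0.0451 in shDNMT3A, where the other 15044 tested rows had 0.106 and 0.11.

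Rank 24, at position 53982, fell in both knockdowns. It had 6765, 6694 and 7038 TPM in pLKO, 3988, 3594 and 3665 in shDNMT3A, and 2935, 2018 and 2232 in shRUNX1. The 3 groups did not overlap, and pLKO 1 lay between the other 2 pLKO libraries. Its log2 fold change was -1.53 in shRUNX1 (SE 0.12, adjusted p = 0.00033) and -0.87 in shDNMT3A (SE 0.12, adjusted p = 0.00526), and it was also lower in shRUNX1 than in shDNMT3A by a log2 fold change of -0.66 (adjusted p = 0.0335). That last call depended on the fit. Its adjusted p was 0.00741 without pLKO 1, but 0.0509 with a replicate block, 0.0578 without pLKO 2, 0.0907 with no filter, 0.128 to 0.175 without any 1 shDNMT3A library, and 0.133 and 0.181 without shRUNX1 2 or 3.

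Rank 45 showed the same order and was named after its values were seen. Its TPM was 4802, 4216 and 4308 in pLKO, 2531, 2469 and 2501 in shDNMT3A, and 1874, 1474 and 1684 in shRUNX1. The log2 fold changes were -1.41 in shRUNX1 (SE 0.09, adjusted p = 0.000169) and -0.83 in shDNMT3A (adjusted p = 0.00173), and without pLKO 1 they were -1.35 (adjusted p = 5.96e-05) and -0.77 (adjusted p = 0.00073).

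Rank 67, at position 33912, rose in both knockdowns to about the same level. It had 1147, 1039 and 1335 TPM in pLKO, 2841, 2752 and 2621 in shDNMT3A, and 2627, 2522 and 3030 in shRUNX1. The log2 fold changes were 1.22 in shRUNX1 (SE 0.10, adjusted p = 0.000504) and 1.23 in shDNMT3A (SE 0.10, adjusted p = 0.00038). Between the knockdowns the difference was -0.01 (SE 0.10, adjusted p = 0.984). Without pLKO 1 the log2 fold change in shRUNX1 was 1.21 for rank 67 (adjusted p = 0.000328) and -1.54 for rank 24 (adjusted p = 0.000278), and in shDNMT3A it was 1.22 (adjusted p = 0.000327) and -0.87 (adjusted p = 0.0035).

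Rank 29, at position 20392, passed the test in shDNMT3A over pLKO, but not in most other fits. It had 4021, 2704 and 2479 TPM in pLKO, 4591, 4940 and 5388 in shDNMT3A, and 3287, 3207 and 3567 in shRUNX1. All shDNMT3A libraries were the highest, and pLKO 1 was above shRUNX1. The log2 fold change in shDNMT3A over pLKO was 0.73 (SE 0.16, adjusted p = 0.0382), and without pLKO 1 it was 0.94 (adjusted p = 0.000189). The adjusted p was 0.0689 to 0.166 with any 1 of the other 8 libraries left out, 0.105 with no filter, 0.141 with only the compared groups and 0.0851 with a replicate block. The remaining calls in shRUNX1 over pLKO were rank 88 of the run, with 2499 to 2533 TPM in shRUNX1 and 987 to 1928 in pLKO (log2 fold change 0.98, adjusted p = 0.029), and rank 93, with 1310 to 1357 TPM in shRUNX1 and 1890 to 2730 in pLKO (log2 fold change -0.72, adjusted p = 0.015). In both, every shRUNX1 library lay on 1 side of all pLKO libraries. Neither call held throughout. Without pLKO 1, rank 88 had 1.28 (adjusted p = 6.93e-06) and rank 93 had -0.56 (adjusted p = 0.00238), under 1.5-fold. With any 1 of the other 8 libraries left out rank 88 had an adjusted p of 0.0561 to 0.115, and rank 93 had 0.0665 to 0.0706 without any 1 shRUNX1 library.

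In pLKO 1 the gain was spread wider than in shRUNX1. Against the mean of pLKO 2 and 3, 79 members were higher and 21 lower, with a net gain of 125131 TPM, or 12.5 percentage points of all TPM. It took 40 members to reach 90% of the summed gains, where 7 did so in shRUNX1 over shDNMT3A. The run contributed 51019 TPM, and the 87 members outside the run, rank 1 and rank 3 another 38267, with 66 of them higher and 21 lower. Rank 5, at position 17966, had 20187 TPM in pLKO 1 against 8700 and 8416 in pLKO 2 and 3, 8683 to 9010 in shDNMT3A and 12593 to 12969 in shRUNX1, so that pLKO 1 exceeded every other library. Rank 4, another row of the run, had 18388 TPM in pLKO 1, 9477 and 9006 in pLKO 2 and 3, 7369 to 7818 in shDNMT3A and 14478 to 14890 in shRUNX1. Rank 76, at position 1128, was lowest there, with 1051 TPM against 2375 and 2309 in pLKO 2 and 3 and 1635 to 2589 in the knockdown libraries. As 1 library, pLKO 1 has no replicate for these differences.

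The rows behind the larger top share were partly the same in shRUNX1 and pLKO 1. The differences between shRUNX1 and shDNMT3A and between pLKO 1 and pLKO 2 and 3 share no library. Of the 100 members, 10 were higher in both, 69 in pLKO 1 only, 1 in shRUNX1 only and 20 in neither. All 10 that were higher in both belong to the 13 rows above, 8 of them to the run. The run and rank 3 were set apart after their values were seen, so this partly follows from that choice. Across the 100 members the TPM differences had a Pearson r of 0.906 and a Spearman rho of 0.0798, and across the 87 others r was -0.107. The high r thus rested on a few very abundant rows. Members of 1 library share its total, so these values are descriptive.

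**Figure D4:**
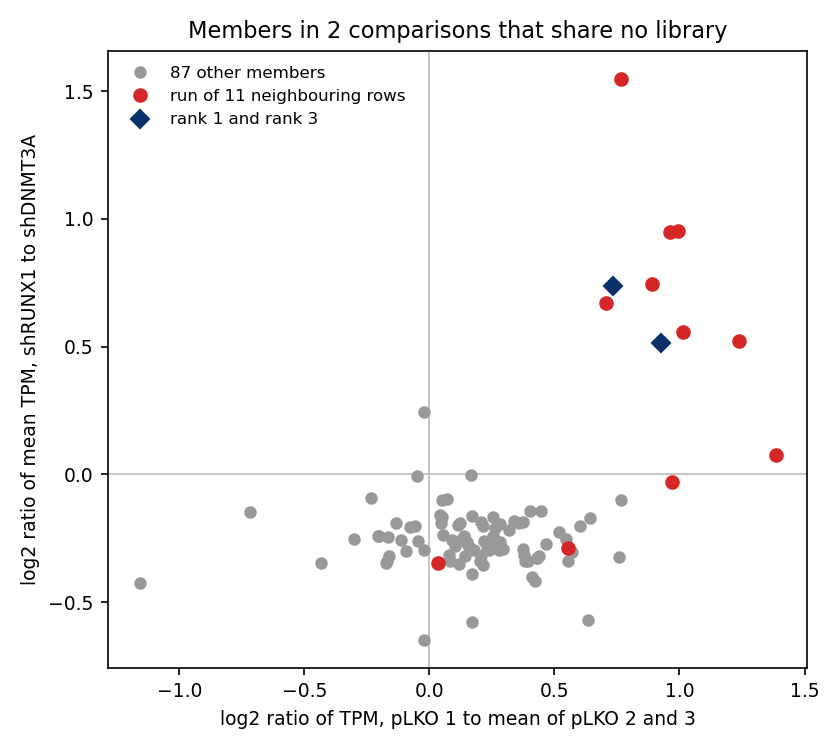
Each point is 1 of the 100 members. The x axis is the log2 ratio of TPM in pLKO 1 to the mean of pLKO 2 and 3, and the y axis is the log2 ratio of mean TPM in shRUNX1 to shDNMT3A. Rank 1, rank 3 and 8 of the 11 rows of the run lie at the upper right, while 86 of the 87 other members lie below 0 on the y axis.

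Rows outside the list held what the members left. Their summed TPM was 492359 in pLKO 1, 614093 and 620890 in pLKO 2 and 3, 603916 to 610608 in shDNMT3A and 597895 to 604618 in shRUNX1. In pLKO 1 this was 0.797 times the mean of pLKO 2 and 3, while shDNMT3A and shRUNX1 were at 0.983 and 0.973. An equal reduction of every row would give a ratio of 0.797 in pLKO 1 at all levels of abundance, and this was not what was measured. The median ratio was 1.1 for ranks 101 to 200, 0.887 for ranks 201 to 1000, 0.733 for ranks 1001 to 3000, 0.614 for ranks 3001 to 6000, 0.514 for ranks 6001 to 10000 and 0.442 for ranks 10001 to 13000. Each lower tier thus had a lower median ratio in pLKO 1. Annotated rows below rank 1000 held 21.3% of all TPM in pLKO 1 and 30.2% to 32.4% in the other 8 libraries, whereas ranks 101 to 1000 held 27.6% there and 28.2% to 30.04% elsewhere.

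In shRUNX1 only the most abundant tiers had a median ratio well below 1. Against pLKO 2 and 3 the median ratio was 0.84 for the 100 members, 0.927 for ranks 101 to 200 and 0.996 for ranks 201 to 1000, and then stayed between 0.956 and 1.0 down to rank 13000. The shDNMT3A libraries had a median ratio of 0.992 for the members and 0.859 to 1.04 in the tiers below.

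**Figure D5:**
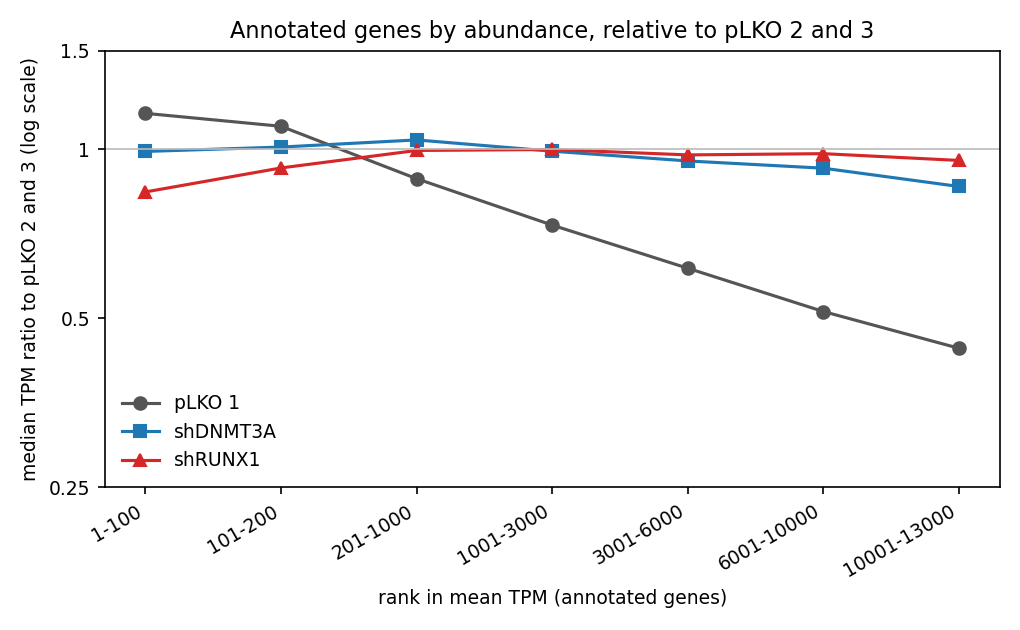
Median over annotated genes of the TPM ratio to the mean of pLKO 2 and 3 (y axis, log scale), in tiers of rank in mean TPM (x axis), for pLKO 1, shDNMT3A and shRUNX1. The pLKO 1 line goes from 1.16 for ranks 1 to 100 down to 0.442 for ranks 10001 to 13000, and the shRUNX1 line goes from 0.84 to near 1.

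The median log2 fold change of the 15044 tested rows outside the list was 0.20 in shRUNX1 over pLKO and 0.13 in shDNMT3A over pLKO, and 10936 and 10096 of them were positive. Of those called, 313 were up and 215 down in shRUNX1 (59.3% up) and 279 up and 181 down in shDNMT3A (60.7% up). Dividing each library by the sum of its rows outside the list left the medians at 0.16 and 0.07 and gave 505 up and 379 down, and 357 up and 326 down. Median-ratio scaling, which takes a factor from the typical row (0.604 for pLKO 1 and 1.03 to 1.13 for the other 8 libraries), brought the medians to 0.00137 and -0.0191 and the calls to 394 up and 563 down (41.2% up) in shRUNX1 and 407 up and 452 down (47.4% up) in shDNMT3A. Without pLKO 1 the medians were -0.0268 and -0.0815, with 447 up and 690 down in shRUNX1 (39.3% up) and 402 up and 1034 down in shDNMT3A (28.0% up). The majority of calls outside the list thus turned downward with median-ratio scaling and without pLKO 1, but not with division by the sum of other rows. It also turned with only the compared groups in the fit (80 up and 87 down in shRUNX1, 47 and 53 in shDNMT3A), and in shRUNX1 without any 1 of its own libraries (103 up and 125 down, 92 and 94, and 97 and 106).

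The members' own directions differed in how far they turned. In shRUNX1 over shDNMT3A no pLKO library enters the means compared. There the run, rank 1 and rank 3 kept ratios of summed TPM of 1.37 to 1.69 under no scaling and both scalings. From 84 to 86 of the 87 others were lower. In shRUNX1 over all 3 pLKO libraries the run's ratio was 1.22 without scaling, 1.12 after division by the sum of other rows and 0.89 after median-ratio scaling, where 8 of its 11 rows were lower. Against pLKO 2 and 3 alone it was 1.61, 1.66 and 1.66. With median-ratio scaling the members called were 2 in shRUNX1 over pLKO, 1 in shDNMT3A over pLKO and 0 in shRUNX1 over shDNMT3A by limma, where 3 members had an unadjusted p under 0.05. Of the 15144 tested rows, those outside the list called in shRUNX1 over pLKO were 394 up and 563 down. In shDNMT3A over pLKO they were 407 up and 452 down, and between the knockdowns 209 up and 244 down. Rank 24 stayed called in shRUNX1 (log2 fold change -1.78, adjusted p = 0.0086), as did rank 45 (-1.66, adjusted p = 0.0113). In shDNMT3A rank 67 stayed called (1.04, adjusted p = 0.0447). Lost with this scaling in shRUNX1 over pLKO were rank 67 (0.97, adjusted p = 0.0541) and rank 88 (0.73, adjusted p = 0.314). Rank 89 (0.97, adjusted p = 0.162) and rank 93 (-0.97, adjusted p = 0.118) were lost there too. In shDNMT3A over pLKO, rank 24 (-1.05, adjusted p = 0.0706) and rank 45 (-1.01, adjusted p = 0.0781) were lost. So was rank 29 (0.54, adjusted p = 0.486). Between the knockdowns, rank 24 (-0.73, adjusted p = 0.248) and rank 89 (1.48, adjusted p = 0.0802) were lost. The fit held all 9 libraries, so the spread used between the knockdowns included that of pLKO 1. With only the 2 knockdown groups and no scaling, the limma adjusted p was 0.0132 for rank 24 and 9.04e-06 for rank 89. Median-ratio scaling with only those groups was not tested.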

How the data were processed

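The authors deposited TPM per gene for each library. The submitters' processing notes name HISAT2 2.1.0, RSEM 1.3.1 and GRCh38.p13; the annotation release is not given in the sources used here, and newly assembled rows carry StringTie-style names. Names are cut to 8 characters and values of at least 10000 TPM touch them, so values were read by character position and rows joined by position. TPM sums to 999999 to 1000001 per library, so depth and counting precision are unknown.

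Members were the 100 annotated rows of highest mean TPM over 9 libraries. log2(TPM + 1) was tested with limma 3.58.1 (R 4.3.3; empirical Bayes with trend) in 1 fit of 9 libraries, for the 15144 rows with at least 1 TPM in at least 3 libraries, with Benjamini-Hochberg adjustment. The fit was tested on simulated data. Shares were compared by exact permutation. Rows named were the 2 largest gains and losses in mean TPM per difference and the first and last ranks, others being marked. The members, lists and rules were chosen with earlier results of these data known. Alternatives were another pseudocount, no filter, fewer groups, a replicate block, other scalings, other list sizes and each library left out. The 3 libraries of the pLVX vector have a separate row list and were not compared. Cells expressing the fusion protein of the same study were not used.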

Additional observations from a re-analysis of the deposited data

How the results depend on the processing

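The difference in the list's share ranged, with each library left out in turn, from -4.73 to 1.7 percentage points for shRUNX1 minus pLKO, from -5.4 to 1.03 for shDNMT3A minus pLKO and from 0.503 to 0.877 for shRUNX1 minus shDNMT3A; the first pair turned sign only without pLKO 1 (1.7 and 1.03). For shRUNX1 minus shDNMT3A it was 1.89 with the 50 highest rows, 0.298 with rows ranked in pLKO only, and turned to -0.0233 with the 200 highest and to -2.76 without the 10 highest members. For pLKO 1 minus pLKO 2 and 3 it was 11.1 with 50 rows, 13.4 with 200 and 8.73 without the 10 highest. Members called ranged from 4 to 12 in shRUNX1 over pLKO (12 without pLKO 1, 10 without pLKO 3), from 3 to 5 in shDNMT3A over pLKO and from 1 to 7 between the knockdowns (7 without pLKO 1), and were 2, 1 and 0 with median-ratio scaling. Between the knockdowns they were 7 with only those groups in the fit, 1 with no filter, and 1 with either scaling to the other rows, of which scaling to their mean sum was chosen after seeing the data. With only those groups, 687 rows outside the list were called up and 364 down, among 15144 tested rows. Calls outside the list moved in the other fits too. Between the knockdowns they were 686 up and 362 down without pLKO 1 (15087 tested), and 13 and 16 without shRUNX1 2 (14976 tested). With no filter they were 61 and 64 (30482 tested), and with median-ratio scaling 209 and 244 (15144 tested). In shRUNX1 over pLKO they were 410 and 148 without pLKO 3 (14888 tested).

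Outside the list, leaving out 1 library gave 92 to 447 rows up and 94 to 690 down in shRUNX1, and 77 to 402 up and 69 to 1034 down in shDNMT3A; the highest of each came without pLKO 1 and the lowest without a knockdown library. Calls in shRUNX1 were 191 up with no filter, 80 up and 87 down with the compared groups only, 505 up and 379 down (498 and 379 in the added form) scaled to the other rows, and 563 down with median-ratio scaling. In shDNMT3A they were 47 up and 53 down with the compared groups only, 326 down (325 in the added form) scaled to the other rows, and 452 down with median-ratio scaling. The median log2 fold change outside the list ranged from -0.0268 (without pLKO 1) to 0.338 (without pLKO 3) in shRUNX1 and from -0.0815 (without pLKO 1) to 0.259 (without pLKO 3) in shDNMT3A, where it was 0.231 without pLKO 2, and became 0.00137 and -0.0191 with median-ratio scaling. Over 14 rows named and all 3 comparisons (42 pairs), 8 pairs turned direction under some alternative, none of them past the test with all 9 libraries and no scaling: ranks 1, 2, 5 and 6 in shDNMT3A over pLKO, ranks 5, 29 and 76 in shRUNX1 over pLKO, and rank 67 between the knockdowns. Rank 5 in shDNMT3A went from -0.579 to 0.0517 over the libraries left out (the latter without pLKO 1), and rank 67 from -0.0884 to 0.0439, with 0.00607 under either scaling to the other rows. Where no library or scaling is named, the cause was not tested.

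Same-numbered libraries did not deviate together (9 pairs, correlations from -0.106 to 0.0848), so the numbers do not pair them. With the replicate number as a block, members called were 6, 3 and 1, and rows outside the list 165 up and 136 down in shRUNX1 and 151 up and 109 down in shDNMT3A.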

Other observations

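The 3 libraries of the empty pLVX vector, another control lentivirus in K562 cells, have a row list of their own (61610 rows, 60623 annotated) and enter no comparison. Their own 100 highest annotated rows took 37.6%, 37.6% and 37.8% of all TPM, ranks 1 to 10 took 12.3% to 12.4% and rank 1 took 3.52% to 3.63%. A chain of 12 neighbouring rows among these 100, at positions 17812 to 17942, held 7.01%, 6.96% and 6.84% of all TPM. It starts 24 positions earlier than the run of 11 rows in the other list, and after that shift 11 of its positions coincide with those of the run. Whether they are the same genes cannot be read from the cut names.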
